A study of Mus musculus with 24 samples.

Results

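The mitochondrial genome of the mouse encodes 13 mRNAs, and 10 of them were examined here: mt-Nd1, mt-Nd2, mt-Nd4, mt-Nd5 and mt-Nd6 of complex I, mt-Cytb of complex III, mt-Co1, mt-Co2 and mt-Co3 of complex IV, and mt-Atp6 of complex V. They were chosen by name, and were found in the table of expression values by their Ensembl identifiers, since the table writes them without the mt- prefix (ND1, COX1, CYTB). The 10 genes are 10 of 49452 rows of the table and 10 of the 37 rows of the mitochondrial genome, which also holds 22 tRNA rows, the rRNAs mt-Rnr1 and mt-Rnr2, and the mRNAs mt-Nd3, mt-Nd4l and mt-Atp8.

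The respiratory chain passes electrons from NADH and succinate to oxygen through complexes I to IV and pumps protons across the inner mitochondrial membrane, and complex V uses the returning protons to make ATP. Most subunits are encoded in the nucleus and imported, but the hydrophobic core subunits are transcribed from mitochondrial DNA as long transcripts of both strands. These are cut at the tRNAs, and most of the mRNAs are then given poly-A tails. Brown adipocytes are packed with mitochondria and can let protons return through UCP1, so that oxidation yields heat, whereas white adipocytes store lipid and hold fewer mitochondria.

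RNA was sequenced from 24 cultures of primary stromal-vascular fraction (SVF) cells, the cells left when mature adipocytes are removed, which include the adipocyte precursors. They were taken from interscapular brown fat (BAT) or epididymal visceral white fat (vWAT) of male C57BL/6 mice aged 6 to 8 weeks. Cells were nucleofected with 100 nmol/l of a non-targeting siRNA (siCtrl, named siKO in the labels) or of an siRNA against the long non-coding RNA H19 (siH19, named siH19_3 in the labels). Which H19 siRNA that label stands for was not settled. Cells were collected before (d0) or 3 days after (d3) the start of differentiation, with 3 libraries in each of 8 groups. No engineered strain is named, fat of several animals could be pooled for a culture, and nothing given here says whether the 3 libraries of a group came from separate animals, so that the p-values measure the spread between libraries. BAT cells differentiated in medium with indomethacin and triiodothyronine, and vWAT cells in medium with rosiglitazone. The labels also name BAT and vWAT libraries in different series, so that depot, medium and series cannot be told apart.

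H19 was 130 ± 27.1 FPKM (SD, n = 3) in BAT siCtrl and 4.36 ± 1.33 in BAT siH19 at d0, and 89.8 ± 8.76 against 13.7 ± 2.79 at d3. In vWAT it was 11.7 ± 0.53 against 1.21 ± 0.57 at d0 and 8.59 ± 0.36 against 0.53 ± 0.38 at d3, so that the siH19 libraries lay below the siCtrl libraries throughout. FPKM count fragments by transcript length (in kilobases) and by library size. The summed FPKM of a library ranged from 710794 to 841456, and read counts are unknown. Relative depth, read from the steps between low values, was 0.83 to 0.98 in BAT and 1.02 to 1.17 in vWAT libraries. It thus split by depot, and its part in the depot differences was not tested. Ucp1 was under 0.1 FPKM in all 12 d0 libraries and in all 12 vWAT libraries, and 8.84 to 16.3 FPKM in BAT siCtrl and 2.00 to 3.63 in BAT siH19 at d3.

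The 10 genes lie on chromosome MT of GRCm38, each as 1 exon without introns, 9 on the plus strand and mt-Nd6 on the minus strand. In genome order they are mt-Nd1 (chrMT:2751-3707), mt-Nd2 (chrMT:3914-4951), mt-Co1 (chrMT:5328-6872), mt-Co2 (chrMT:7013-7696), mt-Atp6 (chrMT:7927-8607), mt-Co3 (chrMT:8607-9390), mt-Nd4 (chrMT:10167-11544), mt-Nd5 (chrMT:11742-13565), mt-Nd6 (chrMT:13552-14070) and mt-Cytb (chrMT:14145-15288). Neighbours overlap by 43 bases between mt-Atp8 and mt-Atp6, by 1 base between mt-Atp6 and mt-Co3, by 7 bases between mt-Nd4l and mt-Nd4, and by 14 bases between mt-Nd5 and mt-Nd6 on opposite strands. The sources differ on whether the library kit kept strand, so that reads of mt-Nd6 and of plus-strand RNA over the same bases may not have been told apart.

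The mRNAs differ in how they end. The last 30 bases are shown for 5 genes, 5′ to 3′ on the coding strand, from the GENCODE M21 transcripts on GRCm38, with the bases of the last codon in capitals. They are shown because mt-Cytb, mt-Nd4 and mt-Co3 stop after a lone T, which the poly-A tail completes to a stop codon, whereas mt-Nd1 and mt-Nd5 end in a full stop codon.
mt-Nd1 (chrMT:3678-3707, plus): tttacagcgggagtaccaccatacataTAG
mt-Nd5 (chrMT:13536-13565, plus): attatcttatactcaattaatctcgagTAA
mt-Nd4 (chrMT:11515-11544, plus): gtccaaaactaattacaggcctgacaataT
mt-Cytb (chrMT:15259-15288, plus): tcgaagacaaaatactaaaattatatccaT
mt-Co3 (chrMT:9361-9390, plus): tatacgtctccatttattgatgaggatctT

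Part of the mitochondrial genome also exists as a nuclear copy on chromosome 1, annotated as 7 minus-strand genes. Gm28661 copies mt-Co2 (681 aligned bases), Gm28437 copies mt-Co3 (783 bases), Gm10925 copies mt-Atp6 (678 bases), Gm28439 copies the first 876 bases of mt-Nd4 and Gm10222 copies mt-Nd4l (294 bases), all with 0 mismatches. Gm28438 differs from mt-Nd3 at 1 base (T3C, counted from the first base of the mRNA), and Gm29216 covers the last 492 bases of mt-Co1 with 6 mismatches, all at its 5′ end. The first 30 bases of that copy are shown beside mt-Co1, because they hold every base at which the pair differs, with the differing bases in capitals (T1056A, C1057T, A1059G, A1060G, C1062A and A1066T, the mt-Co1 base first).
mt-Co1 (chrMT:6381-6410, plus): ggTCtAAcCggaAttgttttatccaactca
Gm29216 (chr1:24616168-24616197, minus): ggATtGGcAggaTttgttttatccaactca

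Levels of the 10 mRNAs spanned 3 orders of magnitude and split by sequence shared with annotated nuclear transcripts, of the chromosome 1 copy or elsewhere. Windows of 75 bases, the shorter of the 2 read lengths given in the sources, that also occur in an annotated nuclear transcript made up 99.9% of mt-Co3, 99.5% of mt-Co2 and mt-Atp6, 61.5% of mt-Nd4, 39.8% of mt-Co1, 5.71% of mt-Nd2 and 1.66% of mt-Nd5, and none (0%) of mt-Nd1, mt-Nd6 and mt-Cytb. The mean FPKM over the 24 libraries was 2.54 for mt-Co3, 8.09 for mt-Atp6 and 26.1 for mt-Co2, against 433 for mt-Nd4, 628 for mt-Nd5, 961 for mt-Nd6, 1419 for mt-Nd2, 1653 for mt-Co1, 1680 for mt-Cytb and 3464 for mt-Nd1. Of all 13 mRNAs, the 5 with more than 90% of shared windows had means of 2.54 to 39.1 FPKM and the other 8 had means of 433 to 12019 FPKM, so that the 2 sets did not overlap. The rows of the chromosome 1 copy reached at most 0.88 FPKM in any library (Gm10925), and Gm10222 and Gm28438 were at 0 in all 24. Shared windows of mt-Nd2 (Gm13339) and mt-Nd5 (Gm11407, Gm4076), and some of mt-Co1 (Gm13340) and mt-Co2 (Gm13341), matched other nuclear genes. The levels of those genes are not given here. How reads with several matches were treated is not given in the sources used here, and the part of shared sequence in the low levels was not tested. mt-Co2, mt-Co3 and mt-Atp6 were therefore read for their differences between groups and not for their level against the other mRNAs.

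**Figure D1:**
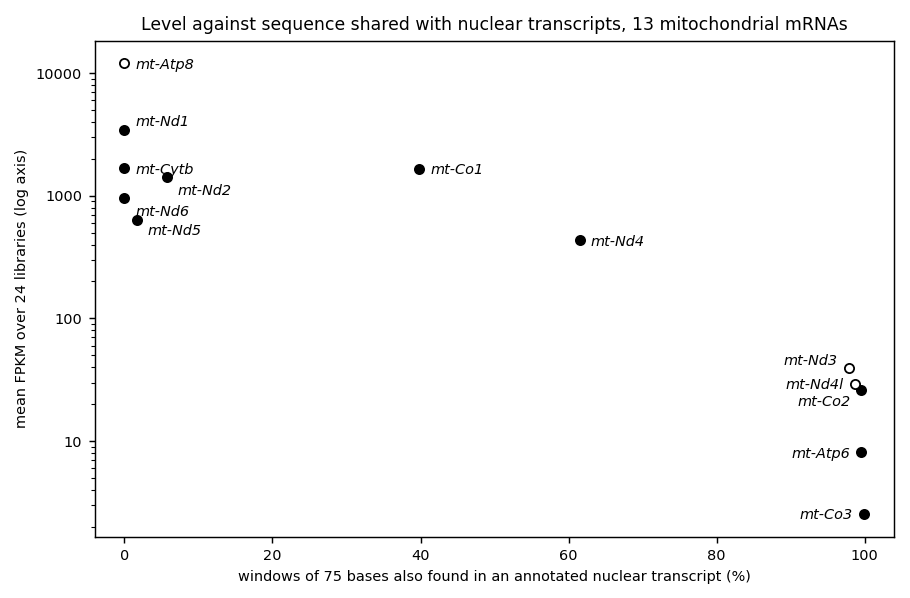
Mean FPKM over 24 libraries (vertical, log axis) against the percent of 75-base windows also found in an annotated nuclear transcript (horizontal) for the 13 mitochondrial mRNAs; filled points are the 10 mRNAs of the report and open points mt-Atp8, mt-Nd3 and mt-Nd4l. The 5 mRNAs above 90% lie between 2.54 and 39.1 FPKM, and the other 8 between 433 and 12019 FPKM.

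Among the other 7 mRNAs, mt-Nd1 had the highest mean in all 8 groups. In BAT siCtrl at d3 the order of mean levels was mt-Nd1 (8851 FPKM), mt-Nd2 (3694), mt-Cytb (3043), mt-Co1 (2945), mt-Nd6 (2088), mt-Nd5 (1371) and mt-Nd4 (849), and among neighbours in this order only the ranges of mt-Cytb and mt-Co1 overlapped. mt-Nd4 and mt-Co1 share 61.5% and 39.8% of their windows with nuclear transcripts, and the part of this in their places was not tested. In BAT at d0 the ranges of mt-Nd1, mt-Cytb and mt-Co1 overlapped from each to the next (means of 960, 902 and 818 FPKM in siCtrl), so that the lead of mt-Nd1 in brown cells was a feature of d3. All 10 mRNAs passed the filter on low values in every comparison, and mt-Co3, whose lowest library had 0.33 FPKM, was the noisiest.

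**Figure D2:**
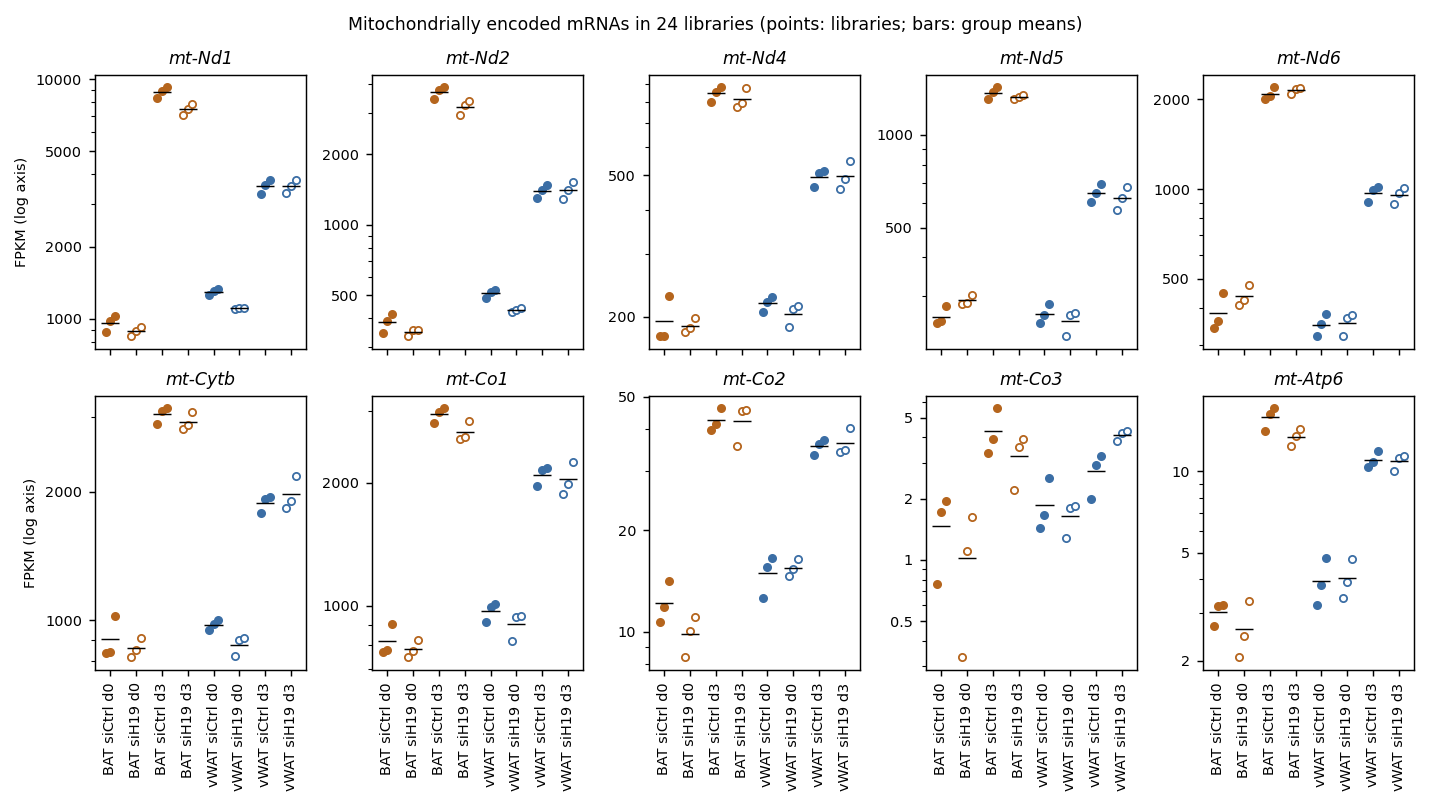
FPKM of each of the 10 mRNAs (log axes that differ between panels) in the 24 libraries by depot, siRNA and day; points are libraries (brown for BAT, blue for vWAT, filled for siCtrl, open for siH19) and bars are means of 3. In every panel except that of mt-Co3 the d3 libraries of a depot all lie above its d0 libraries.

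In BAT cells with siCtrl, every one of the 10 mRNAs rose from d0 to d3. All 10 passed the test (limma on log2(FPKM + 1), adjusted p under 0.05 and at least 1.3-fold higher), against 29.9% of the 13001 genes tested that were called higher, and their median difference was 2.096 on the log2 scale against -0.10 over all genes. The d3 libraries lay wholly above the d0 libraries for all 10, as they did for 36.1% of genes. Fewer cells of a type and less RNA per cell cannot be told apart in such bulk samples.

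mt-Nd1 and mt-Nd2, both of complex I, changed most among the 10. mt-Nd1, a membrane-arm subunit at the ubiquinone end, was 1029.85, 876 and 975 FPKM in the 3 d0 libraries and 8336, 9265 and 8953 FPKM in the 3 d3 libraries. Every d3 library thus exceeded the highest d0 library by a wide margin, and the means stood 9.22-fold apart (log2 difference 3.20, SE 0.07, adjusted p = 8.14e-08 by limma). mt-Nd2, another membrane-arm subunit, went from 419, 345 and 388 FPKM to 3450.41, 3871 and 3760 FPKM, a 9.62-fold higher mean (log2 difference 3.27, SE 0.08).

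The remaining complex I mRNAs moved less. mt-Nd4 and mt-Nd5, proton-pumping subunits of the membrane arm, had log2 differences of 2.13 (SE 0.11) and 2.41 (SE 0.06), and mt-Nd6, the only mRNA of the minus strand, had 2.45 (SE 0.10). The 95% intervals of mt-Nd1 (3.04 to 3.37) and mt-Nd2 (3.08 to 3.46) lay wholly above those of mt-Nd4 (1.87 to 2.39), mt-Nd5 (2.26 to 2.56) and mt-Nd6 (2.203 to 2.70).

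mt-Cytb, the cytochrome b of complex III, was 1025, 837 and 843 FPKM at d0 and 2882, 3147 and 3101 FPKM at d3, a log2 difference of 1.76 (SE 0.09). mt-Co1, the catalytic subunit of cytochrome c oxidase, had 1.85 (SE 0.07), mt-Co2, which takes electrons from cytochrome c, 1.72 (SE 0.11), and mt-Co3 1.11 (SE 0.24). mt-Atp6, the proton-channel subunit of ATP synthase, rose from 3.03 ± 0.30 to 15.8 ± 1.57 FPKM (SD, n = 3; log2 difference 2.06, SE 0.10). The log2(FPKM + 1) scale understates the changes of mRNAs at a few FPKM. The means of mt-Atp6 stood 5.22-fold apart and those of mt-Co3, at 1.48 and 4.29 FPKM, 2.91-fold, and with a pseudocount of 0.1 the log2 differences were 2.35 and 1.54.

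BAT cells with siH19 showed the same 10 of 10 called higher at d3, against 30.8% of 12962 genes. Differences ran from 1.10 for mt-Co3 to 3.18 for mt-Nd2 on the log2 scale, with a median of 2.06 against -0.01 over all genes, and 10 of 10 did not overlap between days, against 37.4% of genes wholly higher. mt-Nd1 went from 920.11, 892 and 846 FPKM to 7075, 7494 and 7857 FPKM, and the groups did not overlap (log2 difference 3.07, SE 0.05).

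In vWAT siCtrl cells 9 of the 10 were called higher at d3, against 26.3% of 13368 genes, with a median log2 difference of 1.25 against 0.01 over all genes, and the same 9 did not overlap, against 36.2% of genes wholly higher. mt-Nd1 was 1249.83, 1332 and 1303 FPKM at d0 and 3806, 3609.72 and 3298 FPKM at d3, without overlap (2.76-fold, log2 difference 1.46, SE 0.06). mt-Nd6 (1.47) and mt-Nd2 (1.45) stood close to it, and mt-Cytb had the smallest called difference (0.95, SE 0.04). The exception was mt-Co3, at 1.66, 2.52 and 1.43 FPKM before and 1.98, 3.26 and 2.92 FPKM after, whose groups overlapped (log2 difference 0.38, 95% interval -0.08 to 0.83, adjusted p = 0.122 by limma). It passed without the first d3 library or without the second d0 library.

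vWAT cells with siH19 had 10 of 10 called higher, against 28.2% of 13357 genes, with a median log2 difference of 1.26 against 0.03 over all genes, and 10 of 10 did not overlap, against 37.4% of genes wholly higher. Here mt-Co3 passed as well (log2 difference 0.96, SE 0.11), going from 1.79, 1.83 and 1.29 FPKM to 3.83, 4.20 and 4.28 FPKM. mt-Nd2 (1.70, SE 0.06) and mt-Nd1 (1.69, SE 0.05) changed most.

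**Figure D3:**
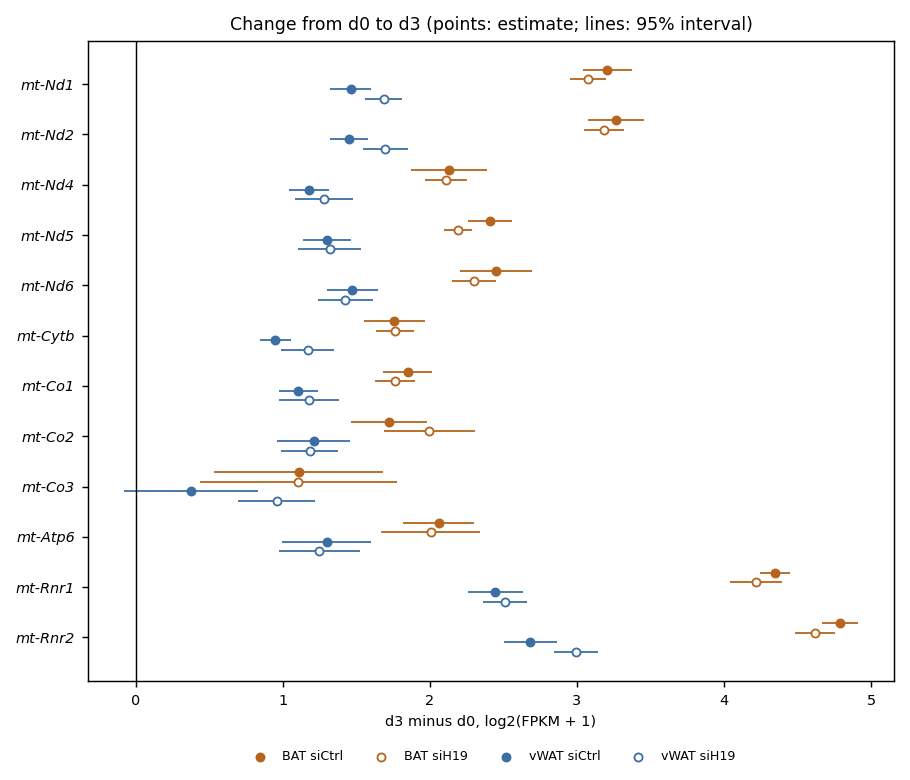
Difference between d3 and d0 in log2(FPKM + 1) (horizontal) for the 10 mRNAs and the 2 mitochondrial rRNAs, with 95% intervals from limma as lines; brown marks BAT and blue vWAT, filled points siCtrl and open points siH19. mt-Nd1 and mt-Nd2 in BAT lie above 3.0, the other mRNAs in BAT between 1.10 and 2.45, and the mRNAs in vWAT between 0.38 and 1.70. In each depot and siRNA the rRNAs lie to the right of the mRNAs.

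The difference between the depots was tested directly in siCtrl cells as the interaction of depot and day. The change from d0 to d3 was larger in BAT for 9 of the 10 mRNAs (adjusted p under 0.05, with no minimum fold), against 24.9% of 14111 genes with a larger change in BAT. The excess was 1.82 (SE 0.10, adjusted p = 1.42e-07 by limma) on the log2 scale for mt-Nd2 and 1.74 (SE 0.10, adjusted p = 1.16e-07) for mt-Nd1, and 0.52 (SE 0.16) to 1.11 (SE 0.10) for the other 7 that passed. mt-Co3 had an excess of 0.73 with a 95% interval of -0.01 to 1.47. The median over the 10 was 0.88, against -0.04 over all genes.

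Adipocyte markers moved in the same direction. Of 7 (Adipoq, Fabp4, Plin1, Cidec, Lpl, Pparg and Cebpa), all 7 were called higher at d3 in each of the 4 series, against 26.3% to 30.8% of all genes. In siCtrl cells, where 24.9% of all genes changed more in BAT than in vWAT, all 7 did. Their summed level went from 3135 to 3408 FPKM at d0 to 37576 to 39282 FPKM at d3 in BAT siCtrl, from 1583 to 2115 to 34248 to 36568 in BAT siH19, from 4087 to 4095 to 19221 to 20208 in vWAT siCtrl and from 2412 to 2721 to 21209 to 22386 in vWAT siH19. Precursor markers (Pdgfra, Pdgfrb, Dlk1, Ly6a and Cd34) fell for 5 of 5 in both BAT series, and for 3 of 5 in both vWAT series, where 1 rose. Their summed level fell from 712 to 791 FPKM at d0 to 277 to 316 at d3 in BAT siCtrl, and from 841 to 863 to 495 to 527 in BAT siH19. In vWAT siCtrl the sum rose from 542 to 601 FPKM at d0 to 661 to 741 at d3. In vWAT siH19 it was 593 to 711 and 709 to 798. The part of the share of differentiated cells in the rise of the mitochondrial mRNAs was not tested.

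The 2 mitochondrial rRNAs, which lie upstream of mt-Nd1 on the same strand, changed more than any of the 10 mRNAs in each depot and siRNA. In BAT siCtrl mt-Rnr1 went from 77.2 ± 2.26 to 1587 ± 65.8 FPKM and mt-Rnr2 from 116 ± 6.41 to 3215 ± 118 FPKM (SD, n = 3), 20.6-fold and 27.8-fold. In vWAT siCtrl the ratios were 5.49-fold and 6.46-fold. The rRNAs lack the long tails by which libraries select RNA, so that their FPKM are only the part that came through that selection. The FPKM of the 2 rRNAs per FPKM of the 10 mRNAs was 0.046 to 0.052 in BAT siCtrl at d0 and 0.208 to 0.212 at d3, against 0.063 to 0.067 and 0.161 to 0.174 in vWAT siCtrl.

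The summed FPKM of the 10 mRNAs was 3917 ± 383 in BAT siCtrl at d0 and 22904 ± 1078 at d3, 5.85-fold, and 3807 ± 174 and 20599 ± 982 in BAT siH19, 5.41-fold (SD, n = 3). In vWAT it was 4606 ± 187 and 11114 ± 668 with siCtrl, 2.41-fold, and 4145 ± 194 and 11116 ± 852 with siH19, 2.68-fold. The 10 mRNAs made up 0.51% to 0.60% of all FPKM in BAT siCtrl at d0 and 2.72% to 2.91% at d3, and all 37 mitochondrial rows made up 1.37% to 1.54% and 6.36% to 6.73%. mt-Atp8, the short ATP synthase mRNA, carried most of the remainder, at 5955 ± 243 and 25200.4 ± 989 FPKM, but its length of 204 bases makes its FPKM sensitive to fragment size. The 22 tRNA rows summed to 0 to 569 FPKM per library.

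The make-up of the sum changed between d0 and d3. Shares are of FPKM and are read between groups, since the part of sequence shared with nuclear transcripts in them was not tested. mt-Nd1 was 23.7% to 25.9% of the 10 in BAT siCtrl at d0 and 38.3% to 38.9% at d3, and mt-Nd2 went from 9.47% to 10.3% at d0 to 15.8% to 16.3% at d3. mt-Cytb went down from 22.4% to 23.5% at d0 to 13.2% to 13.5% at d3, and mt-Co1 from 20.5% to 21.4% to 12.8% to 12.9%. These ranges did not overlap, and a proportion within the mitochondrial mRNAs does not depend on how the library was scaled. In vWAT siCtrl the shift had the same direction and was smaller, with mt-Nd1 at 27.5% to 28.5% at d0 and 31.8% to 32.6% at d3, and mt-Cytb at 20.9% to 21.6% and 16.7% to 17.2%.

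**Figure D4:**
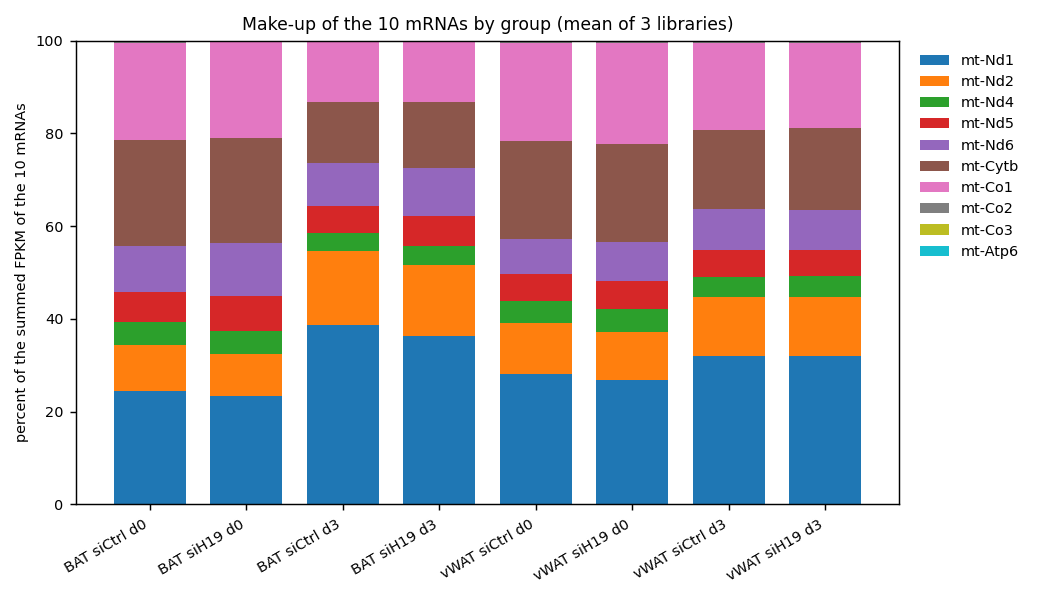
Percent of the summed FPKM of the 10 mRNAs that each contributed, as the mean of 3 libraries in each of the 8 groups (stacked bars from 0 to 100%). The mt-Nd1 share is 24.6% in BAT siCtrl at d0 and 38.6% at d3, and 28.1% and 32.1% in vWAT siCtrl. mt-Co2, mt-Co3 and mt-Atp6 are too small to be seen, and the part of shared nuclear sequence in this was not tested.

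Some pairs kept closer ratios than others. mt-Nd2 per mt-Nd1 was 0.38 to 0.43 in all 24 libraries, and mt-Nd6 per mt-Nd5 was 1.31 to 1.65. In vWAT siCtrl mt-Nd6 per mt-Nd5 was 1.31 to 1.35 at d0 and 1.47 to 1.53 at d3, without overlap. Reads of mt-Nd6 and of plus-strand RNA may not have been told apart, which limits this ratio and the correlation of mt-Nd5 with mt-Nd6. mt-Nd1 per mt-Cytb was 1.00 to 1.16 in BAT siCtrl at d0 and 2.89 to 2.94 at d3, and its means were 1.33 and 1.89 in vWAT siCtrl. Within groups, the deviations of mt-Nd1 and mt-Nd2 from their group means had a Pearson r of 0.97 over 24 libraries, those of mt-Nd4 and mt-Cytb 0.98 and those of mt-Nd5 and mt-Nd6 0.91, whereas mt-Nd1 with mt-Nd5 had the lowest value of the 21 pairs among the 7 abundant mRNAs, 0.60. These coefficients are descriptions, and mRNAs of 1 library share its scaling.

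Between depots at d0, 2 of the 10 were called in each siRNA group. In siCtrl cells mt-Nd1 (876 to 1029.85 FPKM in BAT, 1249.83 to 1332 in vWAT; log2 difference -0.43, SE 0.06, adjusted p = 0.00175 by limma) and mt-Nd2 (-0.41, SE 0.07, adjusted p = 0.00409) were called lower, 2 of 10 against 21% of 13139 genes called lower. These 2 and mt-Co1 did not overlap, 3 of 10 against 40.3% of genes wholly lower in BAT, but neither call held under another scaling of the libraries, nor without the second BAT library. In siH19 cells 2 others were called lower at d0, against 20.6% of 13055 genes. mt-Co2 was 10.0339, 11.04 and 8.39 FPKM in BAT and 15.4, 14.6 and 16.4 in vWAT (log2 difference -0.61, SE 0.10, adjusted p = 0.00358), and mt-Atp6 had -0.48 (SE 0.16, adjusted p = 0.0472), a call that was lost in 10 of its alternatives. Here mt-Nd1 (-0.32, adjusted p = 0.00124) and mt-Nd2 (-0.31, adjusted p = 0.00136) fell short of 1.3-fold. These 4 were wholly lower in BAT, against 38.4% of genes. mt-Nd5 (means of 290.1 FPKM in BAT and 249 in vWAT; log2 difference 0.22, adjusted p = 0.046) and mt-Nd6 (436 and 356 FPKM; 0.29, adjusted p = 0.0267) were wholly higher in BAT, 2 of 10 against 18.2% of genes, and were under 1.3-fold as well.

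At d3 the mRNAs were higher in BAT. In siCtrl cells 8 of the 10 were called higher in BAT, against 16.5% of 13120 genes, with a median log2 difference of 0.73 against -0.16 over all genes. mt-Nd1 was 8336 to 9265 FPKM in BAT and 3298 to 3806 in vWAT (2.48-fold, log2 difference 1.31, SE 0.06), mt-Nd2 was 3450.41 to 3871 and 1305 to 1478 FPKM (log2 difference 1.40, SE 0.06), and mt-Nd6 was 2010.23 to 2203 and 908 to 1019 FPKM (1.10, SE 0.06). mt-Cytb (0.69), mt-Co1 (0.49) and mt-Atp6 (0.48) differed less. mt-Co2 (0.25, adjusted p = 0.0194) was under 1.3-fold and mt-Co3 had an adjusted p of 0.0599, although the groups did not overlap for any of the 10, against 25.3% of genes wholly higher in BAT. With siH19, 7 of the 10 were called higher in BAT at d3, against 15.9% of 13121 genes: the 5 complex I mRNAs, mt-Cytb and mt-Co1. The call of mt-Co1 (log2 difference 0.39) was lost without the third BAT library and without the first or the third vWAT library, and 8 of 10 did not overlap, against 26.7% of genes wholly higher. These comparisons share libraries with those between days.

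BAT and vWAT libraries also differed in other cells. Leukocyte markers (6 genes) summed to 132 to 164 FPKM in BAT siCtrl and 290.2 to 324 in vWAT siCtrl at d0, and to 134 to 165 and 511 to 556 at d3. Skeletal muscle markers (Myod1, Myog, Ckm and Myh4) summed to 10.1 to 28.3 FPKM in BAT siCtrl and stayed under 0.1 FPKM each in all vWAT libraries, and mesothelial markers (4 genes) summed to 1.24 to 5.91 in BAT siCtrl and 33.4 to 93.5 in vWAT siCtrl. Endothelial markers (4 genes) were at 2.44 to 10.2 and erythroid markers (3 genes, Hbb-bs and Hba-a1 under 0.1) at 0.12 to 2.13 FPKM in siCtrl cells. Of 7 brown adipocyte markers, all 7 were called higher in BAT siCtrl at d3. The part of these cells in the depot differences was not tested.

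With siH19, none of the 10 mRNAs was called in any of the 4 comparisons with siCtrl (0 of 10 each, by limma). The share of all genes called was 1.94% in BAT at d0, 8.57% in BAT at d3, 1.53% in vWAT at d0 and 0.0305% in vWAT at d3. At an unadjusted p under 0.05 there were 1, 4, 3 and 1 of the 10, in that order, against 19.6%, 31.3%, 17.6% and 10% of all genes.

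In BAT at d3 the estimates were below 0 for 9 of the 10, with a median of -0.10 against 0.05 over all genes. mt-Nd1 was 8336, 9265 and 8953 FPKM with siCtrl and 7075, 7494 and 7857 FPKM with siH19, so that all siH19 libraries lay below all siCtrl libraries (log2 difference -0.24, SE 0.05, 95% interval -0.37 to -0.11). Its adjusted p was 0.0298 by limma (0.00676 to 0.161 over 14 alternatives), but the difference was under 1.3-fold, and 16.2% of the genes tested had an adjusted p under 0.05. mt-Nd2 had -0.21 (95% interval -0.37 to -0.06, adjusted p = 0.0665), and its groups did not overlap either, 2 of 10 against 13.1% of genes wholly lower with siH19. The intervals of mt-Nd4, mt-Nd5, mt-Nd6, mt-Cytb, mt-Co1 and mt-Co2 lay within -0.27 and 0.25, so that a change of 1.3-fold was outside them, whereas the intervals of mt-Atp6 (-0.45 to -0.00) and mt-Co3 (-0.83 to 0.20) reached it.

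The make-up differed as well in BAT at d3. mt-Nd1 was 38.3% to 38.9% of the 10 mRNAs with siCtrl and 36.0% to 36.5% with siH19, and mt-Nd1 per mt-Cytb was 2.89 to 2.94 and 2.51 to 2.61. In BAT at d0 and in vWAT on both days the mt-Nd1 share and this ratio overlapped, but other shares did not. With siH19 mt-Nd2 and mt-Co2 had lower and mt-Nd5 and mt-Nd6 higher shares in BAT at d0. In vWAT mt-Nd2 was lower and mt-Nd6 higher at d0, and mt-Nd5 was lower and mt-Cytb and mt-Co3 higher at d3. The mean mt-Nd6 share at d0 was 9.78% with siCtrl and 11.43% with siH19 in BAT, and 7.604% and 8.569% in vWAT. In BAT at d3 the summed FPKM of the 10 was 0.90-fold that of siCtrl. mt-Atp8 had a log2 difference of -0.31 (SE 0.04, adjusted p = 0.0048), also under 1.3-fold. Among markers, 5 of 7 brown adipocyte genes and 3 of 5 leukocyte genes tested were called lower with siH19 in BAT at d3, 3 of 4 precursor genes were called higher and 0 of 7 adipocyte genes were called. Of all genes, 2.18% were called lower there and 8.57% in either direction. Summed leukocyte markers were 134 to 165 FPKM with siCtrl and 82.4 to 94.1 with siH19. Their part in these differences was not tested.

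In vWAT at d0 mt-Nd1 was 1249.83, 1332 and 1303 FPKM with siCtrl and 1109, 1112 and 1101 FPKM with siH19, without overlap (log2 difference -0.23, SE 0.04, adjusted p = 0.0472 by limma, 0.0332 to 0.186 over 14 alternatives). mt-Nd2 (-0.24, SE 0.04, adjusted p = 0.048) and mt-Cytb (-0.16, adjusted p = 0.184) were also lower in every siH19 library, 3 of 10 against 16.2% of genes wholly lower, while 2.03% of genes had an adjusted p under 0.05. Here 5 of 7 adipocyte markers were called lower with siH19 (summed 4087 to 4095 against 2412 to 2721 FPKM), as were 5 of 7 in BAT at d0, and their part was not tested. Of all genes, 1.53% in vWAT and 1.94% in BAT were called in either direction at d0.

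In vWAT at d3 mt-Nd1 was 3806, 3609.72 and 3298 FPKM with siCtrl and 3583, 3773 and 3346 FPKM with siH19, and the groups overlapped (log2 difference -0.00, 95% interval -0.16 to 0.16). mt-Co3 was the only one whose groups were apart there (2.72 ± 0.66 and 4.10 ± 0.24 FPKM; log2 difference 0.47, adjusted p = 0.383), 1 of 10 against 7.67% of genes wholly higher. In BAT at d0 mt-Nd5 was higher in every siH19 library (log2 difference 0.17, adjusted p = 0.18), 1 of 10 against 10.6% of genes, and mt-Nd1 was 0.92-fold with overlap.

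**Figure D5:**
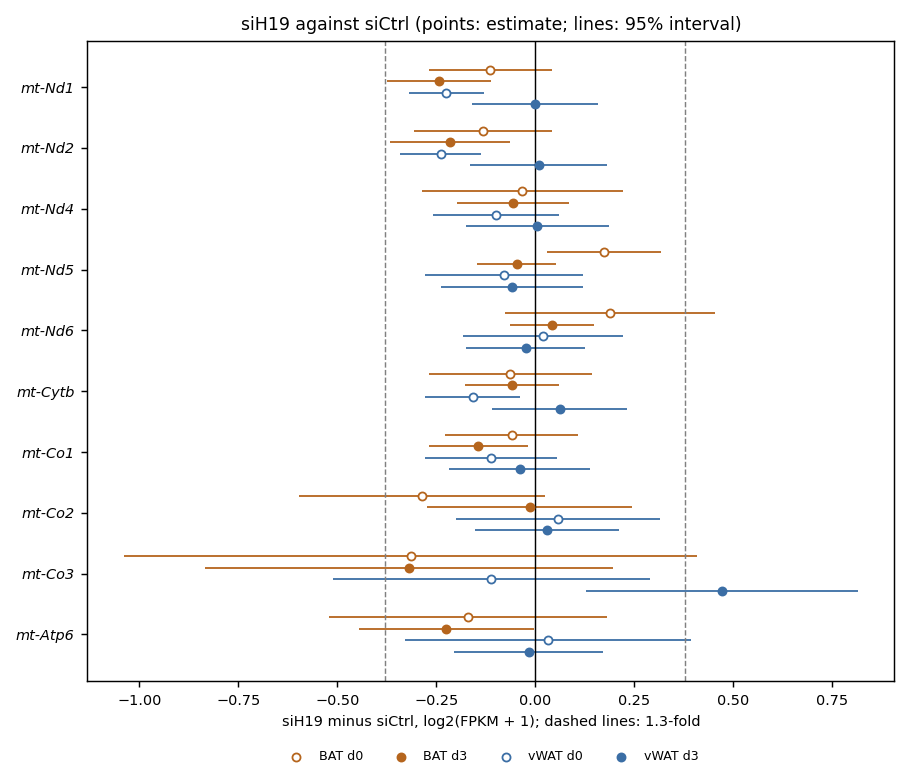
Difference between siH19 and siCtrl in log2(FPKM + 1) (horizontal) for the 10 mRNAs, with 95% intervals from limma as lines; brown marks BAT and blue vWAT, open points d0 and filled points d3, and dashed lines mark 1.3-fold. mt-Nd1 lies at -0.24 in BAT at d3, -0.23 in vWAT at d0 and -0.00 in vWAT at d3, and the widest intervals belong to mt-Co3.

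Tests of whether the siH19 effect differed between depots or days called 0 of the 10 mRNAs in 4 interactions by limma. Between depots at d3, where 10.5% of 13762 genes were called, the estimates ran from -0.79 for mt-Co3 to 0.07 for mt-Nd6 (median -0.11, smallest adjusted p = 0.107), with 2 of 10 at an unadjusted p under 0.05 against 25.6% of genes. Between depots at d0, 1.02% of genes were called, with 1 of 10 at an unadjusted p under 0.05 against 13.3% of genes. Between days 9.06% of genes were called in BAT and 1.73% in vWAT. At an unadjusted p under 0.05 there were 1 of the 10 mRNAs in BAT, against 24% of genes, and 4 in vWAT, against 13.9%. For mt-Nd1 the effect at d3 was 0.24 lower in BAT than in vWAT on the log2 scale (95% interval -0.45 to -0.04, adjusted p = 0.128).

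Nuclear-encoded subunits of complexes I to V are given in passing, since the 2 genomes build the same complexes. Of 76 tested, 76 were called higher at d3 in each of the 4 series, against 26.3% to 30.8% of all genes. Median log2 differences were 2.00 in BAT siCtrl and 1.03 in vWAT siCtrl, against -0.10 and 0.01 over all genes. Cox7a1, a complex IV subunit of heart, muscle and brown fat, changed most in BAT siCtrl (log2 difference 6.66, SE 0.32). With siH19 in BAT at d3, 3 of 76 were called lower, against 2.18% of all genes. All 76 estimates were below 0 (median -0.22, against 0.05 over all genes), with Cox8b at 60.4 ± 11.4 FPKM in siCtrl and 24.4 ± 4.49 in siH19. The siH19 effect at d3 was lower in BAT than in vWAT for 56 of 76 (median -0.28, against 0.06 over all genes). That test called 10.5% of all genes in either direction and 0 of the 10 mitochondrial mRNAs. The shares of subunits and of mitochondrial mRNAs were not compared by a test.

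Nuclear genes that serve mitochondrial DNA and RNA moved in both directions. In BAT siCtrl 34 of 53 tested were called higher at d3, against 29.9% of all genes, and 6 lower, with a median log2 difference of 0.82. Among factors of RNA processing, tailing, stability and decay 17 of 20 rose, and among transcription factors and cofactors of the organelle 8 of 10. The largest differences belonged to the coactivators Ppargc1b (0.44 ± 0.03 to 15.9 ± 0.52 FPKM; log2 difference 3.55) and Ppargc1a (1.19 ± 0.71 to 13.5 ± 2.15; 2.77) and to Mrpl12 (51.5 ± 1.19 to 287 ± 16.9; 2.45), a ribosomal protein also reported to bind the mitochondrial RNA polymerase. Pprc1 (-1.37), Gabpb1 (-1.16) and the thyroid hormone receptor Thra (-1.004) fell. In vWAT siCtrl 20 of 53 were called higher, against 26.3% of all genes, and 5 lower (median 0.23), with Mrpl12 (1.49), Mterf4 (1.49) and Ppargc1b (1.38) first.

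The change from d0 to d3 in siCtrl cells was higher in BAT than in vWAT for 34 of these 53 genes, against 24.9% of all genes, and lower for 6, by limma's interaction test. The difference on the log2 scale was 2.17 (SE 0.11) for Ppargc1b and 1.63 (SE 0.12) for Lrpprc, which keeps mitochondrial mRNAs stable and polyadenylated and was 54.4 ± 1.61 FPKM in BAT and 16.6 ± 0.68 in vWAT at d3. It went the other way for Thra (-1.68, SE 0.09) and for Mterf4 (-1.61, SE 0.09), a factor of mitochondrial ribosome assembly, which was 35.3 ± 2.27 FPKM in BAT and 68.6 ± 4.13 in vWAT at d3. With siH19 in BAT at d3, 4 of 54 of these genes were called lower, against 2.18% of all genes, and 0 higher. Ppargc1a was 13.5 ± 2.15 and 7.28 ± 0.95 FPKM (log2 difference -0.81, adjusted p = 0.0108 by limma), Lig3, the DNA ligase that mitochondria use, had -0.42, and Lrpprc had -0.39 (adjusted p = 0.0494). In BAT at d0 1 of 49 was called lower (Mterf4, -0.39) and 0 were called in vWAT on either day.

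Over the 24 libraries, the genes outside the mitochondrial genome and its copy whose log2 level followed the mean of the 10 most closely, of 7373 with a mean of at least 10 FPKM, included Etfrf1, Decr1, Mcrip2 and Ndufb10, with a Pearson r of 0.995 to 0.996 (n = 24). Decr1, an enzyme of fatty acid oxidation, had mean levels of 15.1 FPKM at d0 and 175 FPKM at d3 in BAT siCtrl and 18.6 and 67.0 FPKM in vWAT siCtrl. Ndufb10, a complex I subunit, had 79.5 and 514 FPKM in BAT siCtrl and 91.8 and 245 FPKM in vWAT siCtrl. The 24 libraries form 8 groups that share depots and days, so that r describes the group pattern alone.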

How the data were processed

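The authors deposited 1 table of FPKM values for 24 poly-A libraries, made with QuickNGS, TopHat2 2.0.10 on GRCm38 and Cufflinks (2.2.1 in the submitters' processing notes). The table holds no counts and names no unit, which was taken from the study's methods. Groups came from the labels.

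Each comparison was fitted to its own 6 libraries (interactions 12) with limma 3.58.1 in R 4.3.3, with an intensity trend, on log2(FPKM + 1), keeping genes that reached 1 FPKM in 3 or more libraries. Benjamini-Hochberg adjustment covered all genes tested. Calls needed an adjusted p under 0.05 and, between 2 groups, 1.3-fold. The pseudocount understates changes of low genes, and a rise of abundant genes lowers the FPKM of others. Scripts were tested on simulated data. Sums and proportions carry no p, since 3 against 3 libraries cannot go below an exact p of 0.1. Replicates had a Pearson r of 0.988 to 0.991, with at most 0.0055% of values identical. Sequences came from GENCODE M21. Named genes were the 10 mRNAs, the other mitochondrial and copy genes, H19, the 3 called nuclear factors with the largest change each way, the called nuclear subunit with the largest change, and the 5 genes most like the 10; not all are printed, and 1 of the 5 is not reported here. Members and lists were chosen with earlier results of these data known. Figures used Python 3.11.15, numpy 2.4.6, pandas 2.3.3 and matplotlib 3.10.9.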

Additional observations from a re-analysis of the deposited data

Results flagged for a closer look

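For 9 of the 10 mitochondrial mRNAs the change from d0 to d3 in siCtrl cells differed between BAT and vWAT in the interaction test (limma, adjusted p under 0.05), always with the larger rise in BAT. On the log2 scale the excess in BAT was 1.82 for mt-Nd2, 1.74 for mt-Nd1, 1.11 for mt-Nd5, 0.98 for mt-Nd6, 0.95 for mt-Nd4, 0.81 for mt-Cytb, 0.76 for mt-Atp6, 0.74 for mt-Co1 and 0.52 for mt-Co2. BAT and vWAT cells differentiated in different media and their libraries were named in different series, so that depot, medium and series cannot be told apart. With 3 libraries per group, single libraries were not examined as outliers.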

How the results depend on the processing

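The alternatives were a pseudocount of 0.1, no filter, trimmed-mean scaling, scaling to the non-mitochondrial total, 1 fit over 24 libraries, no minimum fold, adding the chromosome 1 copies, a replicate block, the sum without mt-Nd1, and leaving out each library. Of the 67 called values of single mRNAs, recomputed 965 times, 946 kept their call, 19 lost it and 0 changed sign. The trimmed-mean log2 factors of BAT and vWAT differed by -0.13 (siCtrl, d0), -0.21 (siCtrl, d3), -0.13 (siH19, d0) and -0.14 (siH19, d3), which raised BAT against vWAT, and 10 (siCtrl) and 8 (siH19) of the 10 were then called higher in BAT at d3. Scaling to the non-mitochondrial total lowered d3 against d0 by 0.10 to 0.13 and changed no count of mRNAs that rose.

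Between days, 10 of 10 rose under every alternative run in BAT and in vWAT siH19, and 9 or 10 in vWAT siCtrl. Calls of lower mRNAs in BAT at d0 were less firm, and the cause was not tested. With siCtrl 0 remained under trimmed-mean scaling and under scaling to the non-mitochondrial total, and 0 to 2 when a library was left out (0 without the second BAT library). With siH19 1 remained with the pseudocount, without the filter, under both scalings and with the replicate block, and 1 to 2 when a library was left out (1 without the second or the third BAT library or any vWAT library). With no minimum fold 4 were lower and 2 higher, and under trimmed-mean scaling 1 was higher. With no minimum fold siH19 lowered 1 mRNA in BAT at d3 and 2 in vWAT at d0.

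Same-numbered libraries had correlations of -0.14 to 0.09 in their deviations from group means over 36 pairs. With 3 libraries per group these values cannot settle whether same-numbered libraries came from the same cells, which the labels do not say. The replicate block called 1 mRNA (mt-Co3, adjusted p = 0.025 by limma) as lower with siH19 in BAT than in vWAT at d3, and gave 9 in place of 8 higher in BAT siCtrl at d3. Trimmed-mean scaling called 1 as lower in the siH19 effect between days in BAT, and leaving out a library gave 0 to 1 (1 without the first BAT siCtrl d0 library).

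The sum of the 10 with siH19 against siCtrl was 0.97-fold in BAT at d0 (0.94 to 1.03 when a library was left out, above 1 without the first siCtrl library) and 1.00-fold in vWAT at d3 (0.98 under scaling to the non-mitochondrial total, and 0.96 to 1.04 when a library was left out, below 1 without the second siH19 or the third siCtrl library). BAT against vWAT with siH19 at d0 went from 0.92-fold to 1.0075-fold under trimmed-mean scaling. Depth in reads is unknown, and low values limit mt-Co3 most.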
